A study of Mus musculus with 7 samples.

Results

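Amino acid transporters were examined in basal cells sorted from mouse mammary glands on day 2 of lactation. The genes were the members of the solute carrier families Slc1, Slc3, Slc7, Slc36, Slc38 and Slc43, taken by symbol. The table of 56440 gene models held 44 rows with such symbols, which gave 42 genes once the row with the lower mean of 2 was set aside for Slc38a6 and Slc38a9. Basal cells are the contractile, keratin 14-positive layer that surrounds the milk-producing luminal cells. The controls (Ctrl, titled Blg negative) gave 4 libraries and the mutants (a3a6KO, titled Blg positive), in which the integrin subunits α3 and α6 were targeted, gave 3, all from the same day of lactation and described as biological replicates. Blg is known from this field as a Cre driven by the beta-lactoglobulin promoter, which is active in luminal and not basal cells. By their titles Blg was present in every mutant and absent from every control, so Blg and the deletion cannot be told apart. The labels used here state no strain, age or further alleles.

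Amino acids cross the plasma membrane through several kinds of carrier. Slc1 and Slc38 proteins use the sodium gradient to load cells with glutamate, glutamine and small neutral amino acids, Slc7 proteins exchange amino acids or carry cationic ones, and several Slc36 proteins couple transport to protons, often at the lysosome. Most Slc7 exchangers work only as the light chain of a heterodimer whose heavy chain is an Slc3 protein. In the lactating gland these carriers are best known for supplying luminal cells with amino acids for milk protein. Several are induced by ATF4, the transcription factor of the amino acid starvation response, and their cargo is sensed by mTORC1, the kinase complex that controls growth.

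The libraries corresponded to 9368418 to 21548279 reads, with the 2 lowest totals in a3a6KO replicates 2 and 3. All 12 basal markers, among them Krt5, Krt14, Acta2 and Oxtr, were present in every library, at a mean of 15.1 ± 0.067 (SD, n = 4) in the controls and 15.05 ± 0.087 (SD, n = 3) in the mutants on the log2 scale. Itga3 and Itga6 transcripts were present in both groups, with log2 fold changes of 0.07 and −0.10. Transcripts of other cells were also present. Endothelial markers summed to 6219 to 9946 normalised reads in Ctrl and 12285 to 18091 in the mutants, luminal markers to 20661 to 43582 and 23128 to 28727, and adipocyte markers to 6129 to 21264 and 10706 to 22367. The milk secretion list was the largest of these, with sums of 183379 to 1229740 in the controls and 132356 to 531128 in the mutants, and 11 of its 13 genes had a fold change below 0, with a median of −0.85 on the log2 scale and 0 called in limma. Of the 8 adipocyte markers, 6 had a fold change below 0 and 2 above, with a median of −0.97 on the log2 scale and 0 called in limma. In such mixtures fewer cells of a type and less RNA per cell cannot be told apart.

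Of the 42 genes, 30 reached a normalised read count of 10 in at least 3 libraries and were tested, 22 of them with that level in every library. Slc1a2, Slc1a6 and Slc36a2, 3 of the 30, reached it in at least 3 control but under 3 mutant libraries. The reverse held for 1, Slc3a1, with all 3 mutant but under 3 control libraries. Such genes passed the filter through the group named first. Another 6 were detected below this level. Slc7a8, a neutral amino acid exchanger, ranged from 2.01 to 21.4 and Slc38a1, a glutamine transporter, from 4.02 to 15.9, while Slc38a11, Slc36a3, Slc1a1 and Slc1a7 never exceeded 5.34. The remaining 6, Slc7a9, Slc7a12, Slc7a13, Slc7a14, Slc7a15 and Slc38a8, were at 0 in all 7 libraries. A count of 0 allows up to 3 reads per library, which is a normalised read count of 2.27 to 5.34. The light chain of the kidney cystine transporter (Slc7a9) and the neuronal and retinal carriers Slc7a14 and Slc38a8 were not detectable at this depth.

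The levels spanned more than 3 orders of magnitude and were led by Slc3a2 and Slc43a3. To compare genes, normalised read counts were divided by exon length. Slc3a2 stood at a mean of 3525 per kilobase over the 7 libraries and Slc43a3 at 2021, together 70.1% of the summed level of all 42 genes. They were followed by Slc7a5 (502), Slc1a5 (402), Slc38a2 (384), Slc38a10 (232), Slc7a7 (158), Slc7a6 (154), Slc43a1 (88.5), Slc7a1 (68.5), Slc7a4 (57.1) and Slc38a7 (43.6). Below Slc43a3, the ranges of neighbours in this order overlapped from Slc7a5 to Slc38a10, for Slc7a7 and Slc7a6, and from Slc43a1 to Slc38a7. The order of such neighbours was not fixed by the data. Genes further apart could still be ordered, since Slc1a5 lay above Slc38a10 and Slc43a1 above Slc38a7 in every library. The sodium-dependent glutamate transporters together held 0.493% of the summed level, most of it Slc1a3 (30.5).

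**Figure D1:**
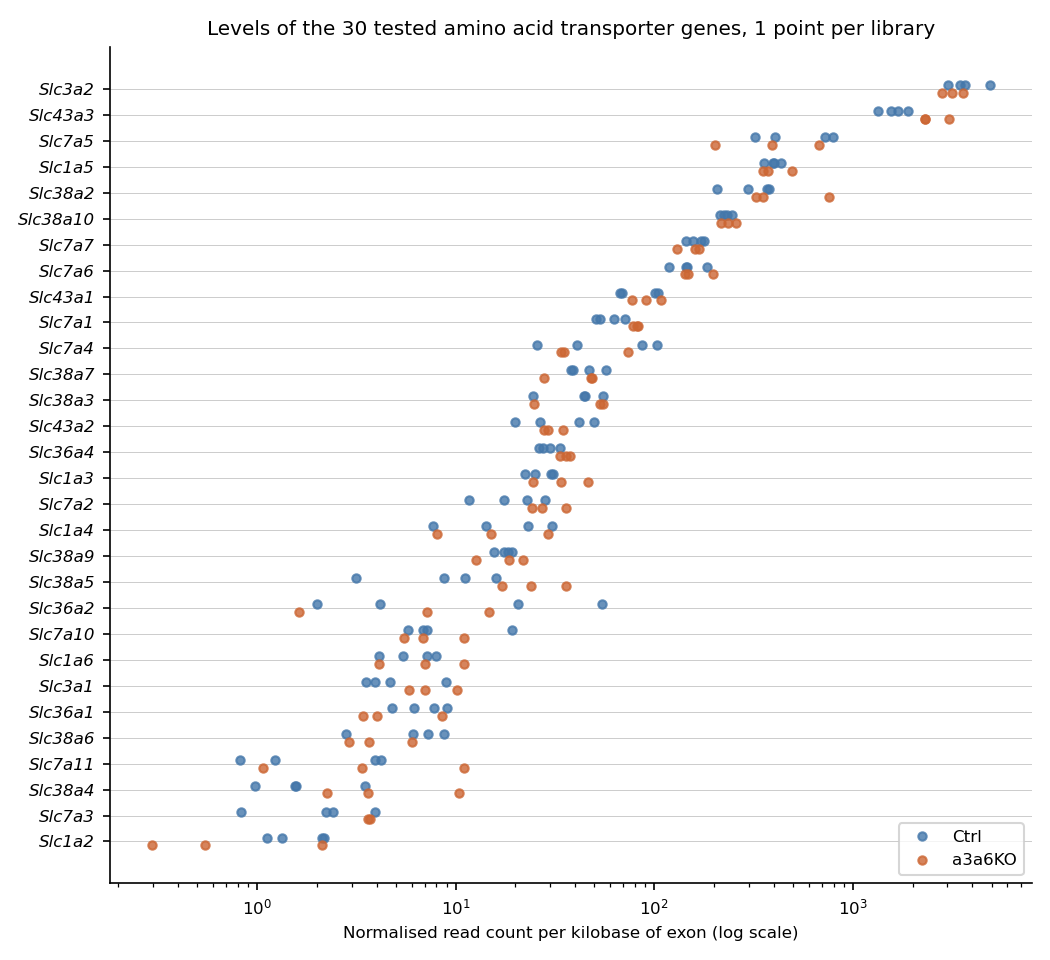
Normalised read count per kilobase of exon (log axis) of the 30 tested genes, ordered by their mean over 7 libraries, with 1 point per library (blue Ctrl, orange a3a6KO). Slc3a2 and Slc43a3 lie above all the others in every library, and the a3a6KO library at 0 for Slc7a3 cannot be drawn on this axis.

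No amino acid transporter gene differed between a3a6KO and Ctrl at an adjusted p under 0.05 (limma, Benjamini-Hochberg over 16889 genes), the same as for all genes tested (0 called, 0%). The smallest adjusted p among the 30 was 0.551. At an unadjusted limma p under 0.05, which 6.32% of all genes reached in either direction, there were 3 genes higher in a3a6KO, Slc43a3, Slc7a1 and Slc38a5, which is 3 of 30 beside 3.55% of all genes tested, and 0 lower, beside 2.78%. In 4 genes, these 3 and Slc36a4, every a3a6KO library lay above every control, 13.3% of the 30 beside 4.00% of all genes, and in 0 genes the reverse, beside 3.51%. The count test of edgeR called 0 of the 30 and 0 of all genes at an adjusted p under 0.05. DESeq2 also called 0 of the 30, of which 6 received no adjusted p, and 77 of all genes (0.456%). The fold change was above 0 in 16 and below 0 in 14 of the 30, beside 49.5% above 0 among all genes, and the median log2 fold change was 0.03, against −0.0040 for all genes. The 95% limma intervals had half-widths from 0.27 to 2.48 on the log2 scale, with a median of 0.76. For a typical member the interval of a change smaller than this includes 0 even before adjustment. A larger change need not have passed the adjusted threshold. The interval of Slc43a3, 0.29 to 1.03, lay above 0, yet its limma adjusted p was 0.551.

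**Figure D2:**
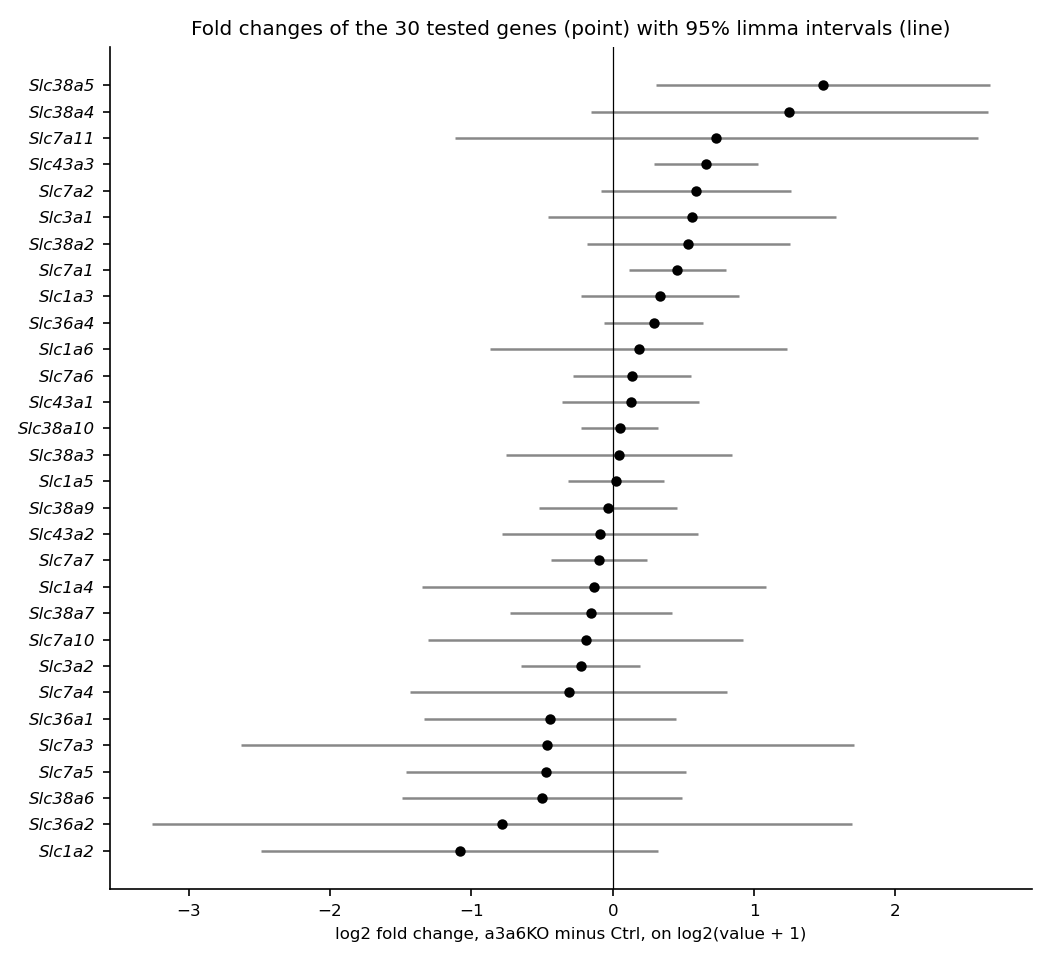
log2 fold change of each tested gene, a3a6KO minus Ctrl on log2(value + 1), with its 95% limma interval, ordered by size. The intervals of Slc38a5, Slc43a3 and Slc7a1 lie above 0 and those of the other 27 genes include 0, before adjustment over all genes.

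Slc3a2 encodes 4F2hc (CD98hc), the heavy chain that carries most Slc7 light chains to the plasma membrane and also binds β1 integrins. The gene (GSMG0020062, mm10 chromosome 19, 8706882 to 8723370, minus strand) had normalised read counts of 14860, 11129, 10509 and 9137 in control replicates 1 to 4 and of 10909, 8494 and 9524 in mutant replicates 1 to 3. Ctrl replicate 1 was the highest library and the groups overlapped. The means were 11409 ± 2447 (SD, n = 4) and 9643 ± 1212 (SD, n = 3), and the log2 fold change was −0.23 (SE 0.19, 95% interval −0.65 to 0.19; limma adjusted p = 0.857). Without Ctrl replicate 1 it was −0.09. Slc3a1, the heavy chain of the kidney cystine transporter, was at 6.29 per kilobase. Its normalised read counts were 8.03, 8.89, 20.2 and 10.6 in the controls and 13.3, 15.8 and 23.1 in the mutants, and the fitted log2 difference was 0.56 (SE 0.45). At 8 to 22 reads per library these values carry a large counting error, and the gene overlaps Prepl on the opposite strand.

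Among the light chains, Slc7a5 (LAT1), the exchanger that brings in leucine and other large neutral amino acids, was the most abundant and varied widely among libraries. Slc7a5 (GSMG0039010, chromosome 8, 121881146 to 121907688, minus strand) had 1422, 1129, 2535 and 2800.4 in control replicates 1 to 4 and 1373, 708 and 2389 in mutant replicates 1 to 3. Ctrl replicates 3 and 4 and a3a6KO replicate 3 were high and the other 4 libraries low, so the spread lay within both groups. The means were 1971 ± 820 (SD, n = 4) and 1490.1 ± 847 (SD, n = 3), and the fitted log2 difference was −0.47 (SE 0.44, 95% interval −1.46 to 0.52). Leaving out a3a6KO replicate 2 gave −0.02 and leaving out a3a6KO replicate 3 gave −0.90. The luminal marker mean (15 genes, log2 scale) was 7.74, 7.58, 8.53 and 9.02 in the controls and 8.07, 8.14 and 8.54 in the mutants, highest in the same 3 libraries. With this mean as a covariate the log2 fold change of Slc7a5 was −0.51, which is a difference between groups and does not measure the spread within them. The means of the milk, immune and adipocyte marker lists were also highest in these 3 libraries. The part of the luminal or any of these other lists in the spread of Slc7a5 was not tested.

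Slc7a6 (y+LAT2) and Slc7a7 (y+LAT1), which export cationic amino acids in exchange for neutral ones, were steady by comparison. Slc7a6 had 546, 445, 539.8 and 691 in the controls and 538, 555 and 738 in the mutants, or 0.14 as the log2 fold change (SE 0.18). Slc7a7 had 467, 379, 411 and 453 in the controls and 441, 342 and 422 in the mutants, or −0.10 as the log2 fold change (SE 0.15, 95% interval −0.43 to 0.24). The groups overlapped in each gene, and the sign turned without a3a6KO replicate 3 for Slc7a6 (−0.0067) and without a3a6KO replicate 2 for Slc7a7 (0.02). Slc7a7 overlaps Oxa1l on the opposite strand.

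Slc7a11 (xCT), which takes up cystine for glutathione in exchange for glutamate, was low and variable. It had 8.03, 12.1, 38.6 and 41.6 in the controls and 33.1, 10.5 and 109 in the mutants, on 8 to 61 reads per library. The highest value was that of a3a6KO replicate 3, and a3a6KO replicate 2 lay below Ctrl replicate 2. Its SD among controls, 1.13 on the log2 scale, was exceeded by 4.94% of all genes tested. Slc7a10 (Asc-1), an exchanger of small neutral amino acids known from neurons and fat cells, had 15.1, 12.1, 40.4 and 14.4 in the controls and 11.6, 14.5 and 23.1 in the mutants, with Ctrl replicate 3 apart from the other controls. It overlaps Lrp3 on the opposite strand.

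Per kilobase of exon, transcripts of Slc3a2 outnumbered those of all its light chains in every library. The 6 light chains known to pair with it (Slc7a5, Slc7a6, Slc7a7, Slc7a8, Slc7a10 and Slc7a11) summed to 14.97, 16.1, 30.1 and 38.6 per 100 of Slc3a2 in control replicates 1 to 4 and to 19.7, 17.4 and 33.8 in mutant replicates 1 to 3. The means were 24.9 ± 11.4 (SD, n = 4) and 23.6 ± 8.86 (SD, n = 3), a difference well below the SD of either group. The same 3 libraries that were high in Slc7a5 were high here, and Slc7a5 made up 41.2% to 68.9% of the light chain sum. These are ratios of transcripts, and the exon length of a gene includes exons that the cells may not use.

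**Figure D3:**
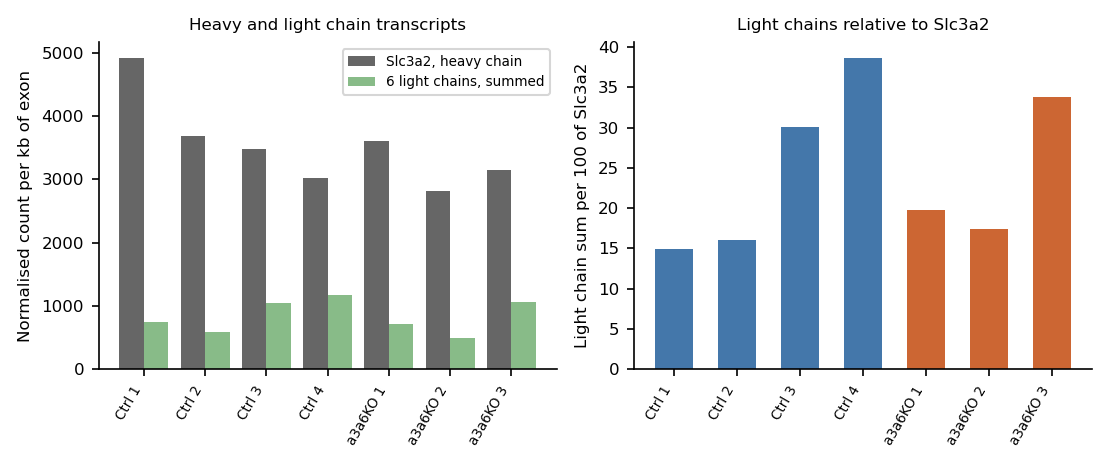
Left, normalised read count per kilobase of exon of Slc3a2 (grey bars) and of the 6 light chains summed (green bars) in each library. Right, the light chain sum per 100 of Slc3a2 (blue Ctrl, orange a3a6KO), which runs from 14.97 to 38.6 in Ctrl and from 17.4 to 33.8 in a3a6KO.

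Sequence that ATF4 is known to bind was looked for in the promoters, since several of these carriers belong to the amino acid starvation response, and the matches are shown here. RefSeq promoters (GRCm38.p6, 250 bases before to 50 after each start site) were matched for 31 of the 42 genes and searched on both strands for TGATGNAA, the core of the C/EBP-ATF response element, whose reverse complement is TTNCATCA. It was present in 3 of the 31 (9.68%), all of them tested genes, in 9 of 27 genes of an ATF4 response list (33.3%) and in 1219 of all 27025 genes with a promoter (4.51%). The windows below are written 5′ to 3′ on the strand of the gene, with the matched bases in capitals and the amino acid response gene Asns, asparagine synthetase, for comparison.
Slc7a11, position −66, chr3:50443661-50443690: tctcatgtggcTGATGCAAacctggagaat
Slc7a11, position −47, chr3:50443642-50443671: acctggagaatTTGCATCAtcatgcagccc
Slc1a4, position −4, chr11:20332699-20332728: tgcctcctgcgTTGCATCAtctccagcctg
Slc7a7, position −141, chr14:54418067-54418096: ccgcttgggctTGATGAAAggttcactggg
Slc7a7, position −1, chr14:54417927-54417956: gacctagaagcTGATGCAAcagcttccccg
Asns, position −23, chr6:7693214-7693243: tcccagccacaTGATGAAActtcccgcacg
Positions count the first matched base from the start site. The Slc7a7 match at −1 was also found at −243 from another start site of that gene. Slc7a11 holds the core in both orientations within 30 bases. A match describes these letters only, and the 3 genes did not share a pattern: Slc7a11 and Slc1a4 varied several-fold among the controls, whereas the SD of Slc7a7 among controls was 0.14 on the log2 scale, a spread exceeded by 85.4% of all genes tested.

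Of the cationic amino acid transporters, which import arginine and lysine without a heavy chain, Slc7a1 (CAT1) had the second smallest p of all members. Slc7a1 (GSMG0031384, chromosome 5, 148327412 to 148399904, minus strand) had 363, 382, 448 and 509 in the controls and 592, 559 and 589 in the mutants. Each a3a6KO library was above each control, and the group means were 426 ± 66.4 (SD, n = 4) and 579.9 ± 18.04 (SD, n = 3). The log2 fold change was 0.46 (SE 0.15, 95% interval 0.11 to 0.80; limma adjusted p = 0.682), and leaving out 1 library moved it between 0.39 and 0.55. Slc7a2 (CAT2), the inducible arginine carrier, had 101.4, 245, 151 and 197 in the controls and 210.4, 309.9 and 237 in the mutants. The groups overlapped through Ctrl replicate 2, and the log2 fold change was 0.59 (SE 0.30, limma adjusted p = 0.789). It moved to 0.36 without Ctrl replicate 1 and to 0.78 without Ctrl replicate 2.

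Slc7a4, an orphan of this branch, had 143, 88.9, 301 and 359 in the controls and 123, 117 and 258 in the mutants. As for Slc7a5, Ctrl replicates 3 and 4 and a3a6KO replicate 3 were the high libraries. The log2 fold change was −0.31 (SE 0.49). It came to −0.01 when Ctrl replicate 4 was left out and to −0.68 when a3a6KO replicate 3 was. Slc7a4 overlaps P2rx6 on the opposite strand. Slc7a3 (CAT3) stayed between 0 and 11.3.

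In the Slc1 family the neutral exchanger Slc1a5 was the most abundant, at 402 per kilobase, and the glutamate transporter Slc1a3 (30.5) stood above the other neutral exchanger, Slc1a4 (18.2). Slc1a5 (ASCT2), the exchanger that imports glutamine, had 1207, 1109, 987 and 1090.1 in the controls and 972, 1035 and 1368 in the mutants. Its means of 1098 ± 90.2 (SD, n = 4) and 1125 ± 213 (SD, n = 3) differed by less than either SD, and the fitted log2 difference was 0.02 (SE 0.15, 95% interval −0.32 to 0.36). The sign turned under several settings, among them leaving out a3a6KO replicate 3 (−0.13). Slc1a4 (ASCT1), which carries alanine, serine and cysteine, had 30.1, 91.3, 56.0 and 119.5 in the controls and 58.8, 31.6 and 114 in the mutants, with overlapping groups. Slc1a3 (GLAST), a glutamate transporter best known from glia, had 98.4, 132.5, 110.2 and 136 in the controls and 149.96, 108 and 205 in the mutants, and the fitted log2 difference was 0.33 (SE 0.25) that was 0.11 without a3a6KO replicate 3. Slc1a2 (GLT-1), the main glutamate transporter of astrocytes, had 26.1, 16.2, 25.7 and 13.6 in the controls and 25.7, 6.59 and 3.56 in the mutants. In limma it had the lowest fold change of the 30, a log2 value of −1.08 (SE 0.62, 95% interval −2.49 to 0.32). The gene had passed the filter through the controls. The 2 low mutant libraries were the least deeply sequenced, with no more than a few reads. Leaving out a3a6KO replicate 3 gave −0.54 and leaving out a3a6KO replicate 1 gave −1.81, and edgeR and DESeq2 gave −0.66 and −0.69, above their values of −1.42 and −1.39 for Slc36a2. Slc1a6 ranged from 8.29 to 22.4.

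Slc38 proteins are the sodium-coupled neutral amino acid transporters, and the family was led by Slc38a2 (SNAT2), which is induced when amino acids are scarce. Slc38a2 (GSMG0014445, chromosome 15, 96687390 to 96699731, minus strand) had 968, 1773, 1381 and 1728 in the controls and 1647, 1512 and 3523 in the mutants. A single library, a3a6KO replicate 3, stood above the others, and the other 2 mutant libraries lay within the range of the controls. The log2 fold change was 0.54 (SE 0.32, 95% interval −0.18 to 1.26; limma adjusted p = 0.799) and 0.15 without that library. Slc38a4, which like Slc38a2 belongs to transport system A, had 4.02, 6.46, 6.43 and 14.4 in the controls and 14.9, 9.23 and 42.7 in the mutants, again highest in a3a6KO replicate 3. Its log2 fold change of 1.25 (SE 0.62) was 0.66 without that library and rested on 4 to 24 reads per library.

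Slc38a5 (SNAT5), a system N carrier of glutamine and serine, had the highest fold change of the 30 in limma, whereas in edgeR and DESeq2 Slc38a4 was higher (1.43 and 1.46, against 1.38 and 1.39). Slc38a5 (GSMG0041575, chromosome X, 8271381 to 8280174, plus strand) had 7.03, 19.4, 24.8 and 35.6 in the controls and 79.5, 38.2 and 53.4 in the mutants. The lowest mutant and the highest control were close, and no library of one group entered the range of the other. The log2 fold change was 1.49 (SE 0.52, 95% interval 0.31 to 2.67; limma adjusted p = 0.694). It was lowest, 1.05, when Ctrl replicate 1 was left out and highest, 1.78, when Ctrl replicate 4 was. The values rest on 7 to 96 reads per library.

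Slc38a10, a widely expressed member, had the smallest SD of the 30 among controls, with 1337, 1256, 1158 and 1211 in the controls and 1278, 1175 and 1406 in the mutants, or 0.05 as the log2 fold change (SE 0.12, 95% interval −0.22 to 0.32). Slc38a7, a lysosomal glutamine exporter, had 191, 156, 128 and 130.1 in the controls and 162, 159.5 and 92.5 in the mutants, or −0.16 as the log2 fold change (SE 0.25) that was 0.11 without a3a6KO replicate 3. The sign of Slc38a10 also turned without a3a6KO replicate 3 (−0.02). Slc38a9, the lysosomal arginine sensor upstream of mTORC1, ranged from 139 to 172 in the controls and from 112 to 194 in the mutants. Slc38a3 ranged from 87.2 to 197 over the 7 libraries. Slc38a6 had 49.2, 41.2, 58.8 and 18.9 in the controls and 24.9, 40.9 and 19.6 in the mutants, and the fitted log2 difference was −0.50 (SE 0.44). Leaving out 1 library moved it from −0.28, without a3a6KO replicate 3, to −0.84, without Ctrl replicate 4.

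The Slc36 family is best known for proton-coupled carriers of small amino acids, which need not hold for every member. Slc36a4 (PAT4), which carries proline and tryptophan, had 219, 172, 196 and 179 in the controls and 246, 220.2 and 235 in the mutants. The groups did not overlap, but the highest control and the lowest mutant were nearly equal. The log2 fold change was 0.29 (SE 0.15, 95% interval −0.06 to 0.64; limma adjusted p = 0.789). Slc36a1 (PAT1), the lysosomal member, ranged from 18.5 to 48.7.

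Slc36a2 (PAT2), which is known as a surface marker of brown and beige fat cells, had the widest spread of the 30. It had 10.04, 4.85, 132 and 49.9 in the controls and 17.4, 3.96 and 35.6 in the mutants, and its SD among controls of 2.05 on the log2 scale was exceeded by 0.557% of all genes tested. These values rest on 3 to 144 reads per library, so those at the low end carry a large counting error. The mean of 8 adipocyte markers was 7.51, 6.36, 9.62 and 8.88 in the controls and 8.30, 5.58 and 8.48 in the mutants on the log2 scale, and all 7 libraries stood in the same order in both measures. Of 270 pairs of a tested member and a marker list, over 9 lists, this was the 1 pair with an identical order, and it was singled out after the values were seen. The markers did not all run alike. Adipoq, which encodes the fat cell hormone adiponectin, had 91.4, 30.7, 782 and 343 in the controls and 256, 5.27 and 228 in the mutants, and Plin1 was at 0 in 2 libraries. Lep, which encodes the hormone leptin, had 2071, 4588, 8023 and 14894 in the controls and 18158, 13928 and 4398 in the mutants. It made up most of the summed adipocyte level in Ctrl replicates 2 and 4 and in a3a6KO replicates 1 and 2. Plin4, a lipid droplet protein gene, was highest in Ctrl replicate 1 (2725) and lowest in Ctrl replicate 3 (1279.8). The part of fat cell transcripts in the level of Slc36a2 was not tested.

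**Figure D4:**
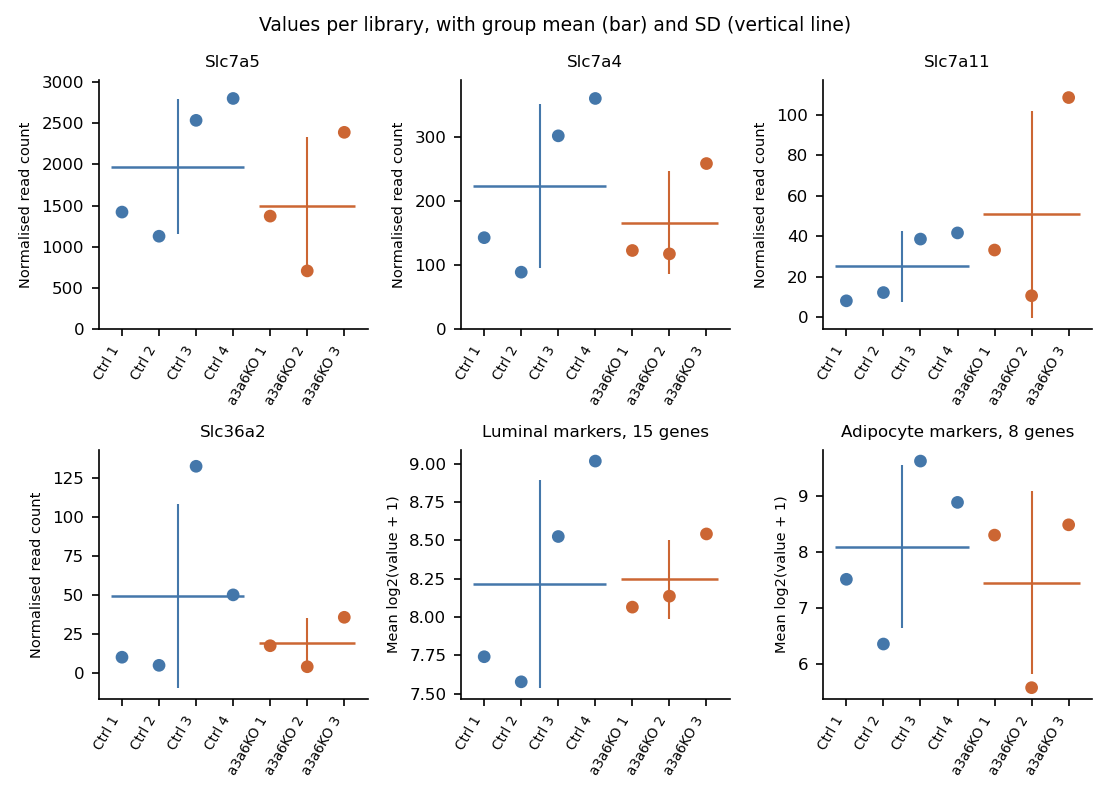
Normalised read count of Slc7a5, Slc7a4, Slc7a11 and Slc36a2 and the mean log2(value + 1) of luminal and adipocyte markers in each library (blue Ctrl, orange a3a6KO), with the group mean as a bar and the SD as a vertical line. Slc7a5, Slc7a4 and the luminal mean are highest in Ctrl replicates 3 and 4 and a3a6KO replicate 3, and the order of the libraries is the same for Slc36a2 and the adipocyte mean.

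Slc43a3 was the member with the smallest p. It belongs to the Slc43 family by sequence but carries purine nucleobases rather than amino acids. Slc43a3 (GSMG0021314, chromosome 2, 84936646 to 84958509, plus strand) had 4024, 3455, 4884 and 4353 in control replicates 1 to 4 and 7876, 5990.3 and 5955 in mutant replicates 1 to 3. Every mutant library lay above every control, and the group means were 4179 ± 599 (SD, n = 4) and 6607 ± 1099 (SD, n = 3). The log2 fold change was 0.66 (SE 0.16, 95% interval 0.29 to 1.03), a fold of 1.58, with an unadjusted limma p of 0.00301 and an adjusted p of 0.551. Leaving out 1 library moved it between 0.53 and 0.74. In DESeq2 the adjusted p was 0.0644.

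The other two members of the family move large neutral amino acids by facilitated diffusion. Slc43a1 (LAT3) had 367, 243, 249.7 and 379 in the controls and 329.8, 281 and 391 in the mutants, or 0.13 as the log2 fold change (SE 0.21). Slc43a2 (LAT4) ranged from 142 to 359 in the controls and from 199.3 to 249.2 in the mutants. In both genes the mutant values lay inside or close to the range of the controls.

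The endothelial markers were also higher in a3a6KO, beside Slc43a3, Slc7a1 and Slc38a5. All 18 had a fold change above 0, with a median of 1.02 on the log2 scale, 16 at an unadjusted limma p under 0.05 (6.32% of all genes in either direction), and 9 were called by DESeq2 (0.456% of all genes). Their mean was 8.06, 8.28, 8.04 and 8.70 in the controls and 8.85, 9.39 and 9.53 in the mutants on the log2 scale. No endothelial marker was at 0 in any library. Erythroid markers summed to 25.1 to 359 normalised reads in the controls and 612 to 787 in the mutants. Pericyte and vascular smooth muscle markers summed to 3216 to 5513 and 4159 to 5874. Of the 11 of these tested, 10 had a fold change above 0 and 1 below, with a median of 0.53 on the log2 scale. An unadjusted limma p under 0.05 was reached by 4 of the 11, and DESeq2 called 1. All 3 tested erythroid markers had a fold change above 0, with 2 at that unadjusted p and 1 called by DESeq2. The endothelial mean was also used as a covariate, an alternative added after the data were seen. With it the log2 fold change was 0.99 for Slc43a3, 0.22 for Slc7a1 and 0.99 for Slc38a5, each at a limma adjusted p of 0.9996. In that fit limma called 0 genes. The endothelial mean is nearly aligned with the groups, so the fit cannot tell them apart. The part of endothelial transcripts in these values was not tested.

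**Figure D5:**
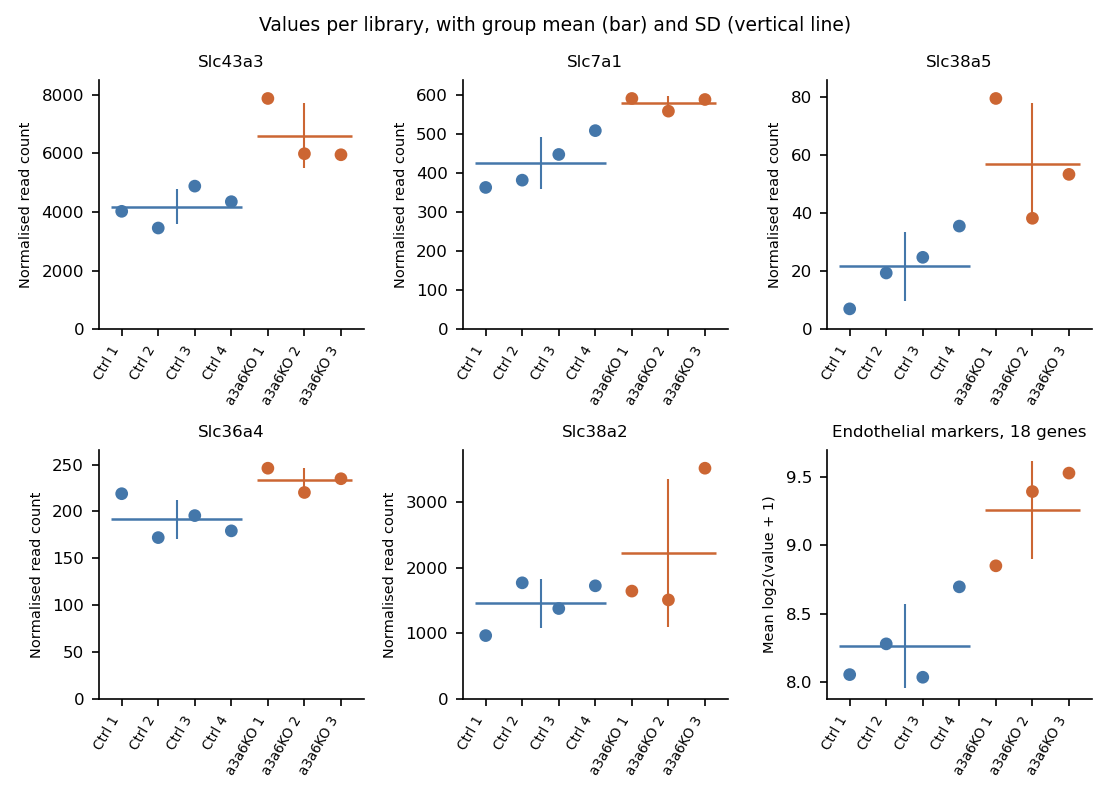
Normalised read count in each library (blue Ctrl, orange a3a6KO) of the 4 members whose groups do not overlap, Slc43a3, Slc7a1, Slc38a5 and Slc36a4, and of Slc38a2, with the group mean as a bar and the SD as a vertical line. The last panel gives the mean log2(value + 1) of 18 endothelial markers, 8.04 to 8.70 in Ctrl and 8.85 to 9.53 in a3a6KO.

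Amino acid transporters of other families were examined beside these genes. Of 32 listed carriers 31 were in the table and 15 were tested. In limma 0 of the 15 passed, 10 had a fold change above 0 and the median was 0.21. Slc6a6, the taurine transporter, had 833, 946, 885 and 1072 in the controls and 1541, 1387 and 1432 in the mutants, or 0.64 as the log2 fold change (SE 0.13, limma adjusted p = 0.515). It was the 1 gene of all 5 pathway lists that DESeq2 called (adjusted p = 0.00969). These lists held 30, 35, 22, 15 and 23 tested genes, and DESeq2 called 0.456% of all genes tested. Slc6a9 (GLYT1), a glycine transporter, had 530.2, 359, 458 and 375 in the controls and 612, 629 and 701 in the mutants, or 0.60 as the log2 fold change (SE 0.17, limma adjusted p = 0.551). In both genes each mutant library was above each control, which held for 3 of the 15 in all, beside 4.00% of all genes tested. Slc6a8, the creatine transporter, had a log2 fold change of 0.28 (SE 0.14) and overlapping groups.

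The response to amino acid shortage, as read from 30 ATF4-linked genes, all tested, showed no call. In limma 0 of 30 passed, 17 had a fold change above 0 and 13 below, and the median was 0.09. Every mutant library lay above every control in 2 of the 30, beside 4.00% of all genes, and below in 0, beside 3.51%. The serine synthesis enzyme Phgdh averaged 837 ± 76.0 (SD, n = 4) in the controls and 1075 ± 106 (SD, n = 3) in the mutants, or 0.36 as the log2 fold change (SE 0.13) with no overlap of the groups. Shmt2, which passes serine carbon into the mitochondrial folate pool, averaged 743 and 881 (0.25, SE 0.11), also with no overlap, and Cth, which makes cysteine, 382 and 528 (0.50, SE 0.25). The highest counts on the list, before division by length, were those of Atf3, from 30731 to 84567, and Ppp1r15a, from 11837 to 23836, stress-induced genes whose groups overlapped.

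Genes of mTORC1 and its amino acid sensors were near even between the groups, with 35 of 38 listed genes tested, 13 above 0 and 22 below, 0 called in limma and a median of −0.04. Rraga, a Rag GTPase that recruits mTORC1 to the lysosome, averaged 2237 ± 179.5 (SD, n = 4) and 1852 ± 54.2 (SD, n = 3), or −0.27 as the log2 fold change (SE 0.12). Its close relative Rragb had −1.06 (SE 0.35) at a low level, averaging 51.1 and 24.8. In both genes, 2 of the 35, each mutant library was below each control, beside 3.51% of all genes tested. Since the genes are close relatives, whether the counting split reads between them is not known here. Lamtor2, a subunit of the lysosomal anchor, had 0.26 (SE 0.15). Tsc2, an inhibitor of the pathway, and Sec13, a subunit shared with the GATOR2 sensor complex, had the highest counts before division by length and ranged from 3333 to 5706 and from 1880 to 2373.

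Of 23 listed aminoacyl-tRNA synthetase genes and their scaffold proteins, which join amino acids to transfer RNA, 22 were tested and 0 called in limma, with 8 above 0, 14 below and a median of −0.07. Dars, the aspartyl enzyme, averaged 2153 ± 169.7 (SD, n = 4) and 1711 ± 132 (SD, n = 3), or −0.33 as the log2 fold change (SE 0.12). Rars, the arginyl enzyme, had −0.20 (SE 0.12). In both genes, 2 of the 22, each mutant library was below each control, beside 3.51% of all genes tested. The scaffold gene Aimp2 had 0.21 (SE 0.16). Eprs and Vars, with the highest counts before division by length, ranged from 1917 to 2480.2 and from 1829 to 2700.1, with overlapping groups.

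Enzymes of glutamine, glutamate, arginine, branched-chain amino acid and glutathione metabolism were also close to even, with 23 of 25 tested, 9 above 0, 14 below, 0 called in limma and a median of −0.01. Ggt1, which breaks down extracellular glutathione and so releases cysteine, averaged 4606 ± 296 (SD, n = 4) and 3802 ± 350 (SD, n = 3), or −0.28 as the log2 fold change (SE 0.12) with no overlap of the groups. It was the 1 gene of the 23 with each mutant library below each control, beside 3.51% of all genes tested. Prodh, a proline oxidase, had 177, 81.6, 85.4 and 80.2 in the controls and 45.6, 83.1 and 65.8 in the mutants, and its log2 fold change of −0.66 (SE 0.34) was −0.38 without Ctrl replicate 1. Glul, which makes glutamine, had 0.47 (SE 0.26) and overlapping groups. Oat, which links ornithine to proline and glutamate, had the highest count on the list before division by length, from 4461 to 5681.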

How the data were processed

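Basal cells were sorted by flow cytometry after trypsin digestion and SMARTer v4 libraries were made from their RNA, per the labels. The deposited file holds a signal value per gene and library, which the authors made by dividing gene counts by a DESeq2 size factor, per its name and the submitters' processing notes. The notes name STAR 2.4.0 and build mm10. The read counter and strand setting were not given in the sources at hand, and 10 of the 42 genes overlap another feature that reached 10.

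Every value was a whole multiple of a step per library within 0.01 of a read (100% of values), so reads were recovered for count tests. Even numbers made up 61.8% to 63.8% of recovered counts from 1 to 20; the cause was not tested.

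Groups were compared on log2(value + 1) with limma 3.58.1 (R 4.3.3, eBayes with trend), for genes with at least 10 in 3 libraries, two-sided, with Benjamini-Hochberg adjustment over all genes and a threshold of 0.05. Alternatives were DESeq2 1.42.0 and the edgeR 4.0.16 quasi-likelihood test, both on recovered reads, and other pseudocounts, filters, scalings, weights, covariates and leaving out each library. The limma fit was run on simulated counts. Exon lengths are the union of protein-coding exons in GENCODE M21 basic (GRCm38), matched for 42 genes. Replicate numbers only name libraries in order of deposition. The limma p-values set the difference between groups against the spread between libraries within groups, moderated over genes by eBayes. The 42 genes and all lists were chosen with earlier results of these data known. Fold changes are given for the 12 members with the smallest p, the 12 with the highest level per length and, of each pathway list, the 3 with the smallest p. Up to 2 list genes with the highest level are given by range. Other members were named by their values, chosen after these were seen.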

Additional observations from a re-analysis of the deposited data

Results flagged for a closer look

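In the 4 Ctrl libraries a single value stood apart by Dixon's criterion (its gap to the nearest other, as a share of the range) in 2 of 62 sets of values examined, where chance alone marks about 1 in 20. For Slc7a10 it was Ctrl replicate 3 at 40.4, against 12.1 to 15.1 in the other controls. For Prodh it was Ctrl replicate 1 at 177, against 80.2 to 85.4.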

How the results depend on the processing

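The count of amino acid transporter genes past the threshold was 0 under all 20 alternatives. The count over all genes was 0 under 19 of them and 77 in DESeq2, which also called 1 gene of the pathway lists, Slc6a6 (0.64). The median of the members ran from −0.06 to 0.09, and leaving out each library gave −0.01 to 0.09, so its sign was not fixed. Upper-quartile scaling moved the median of all genes to −0.09 and turned Slc1a5 to −0.067 and Slc38a10 to −0.039. Quantile normalization gave −0.022 and library weights −0.077 for Slc1a5. The endothelial mean as a covariate, which is nearly aligned with the groups, turned Slc1a2 to 1.34, Slc1a3 to −0.080, Slc1a5 to −0.25, Slc38a2 to −0.44, Slc38a4 to −0.36, Slc38a6 to 0.65, Slc38a7 to 0.44, Slc3a2 to 0.31, Slc43a1 to −0.20, Slc7a2 to −0.17, Slc7a6 to −0.37, Aimp2 to −0.16, Cth to −0.27 and Phgdh to −0.019, each at a limma adjusted p of 0.9996. Leaving out 1 library gave −0.13 to 0.12 for Slc1a5 (turned without Ctrl replicate 3 or a3a6KO replicate 3), −0.015 to 0.11 for Slc38a10, −0.29 to 0.11 for Slc38a7, −0.0067 to 0.25 for Slc7a6 and −0.17 to 0.017 for Slc7a7. The causes were not tested. In all, 669 of 694 gene values kept their direction and side of the threshold. No paired analysis was possible because the labels carry no replicate numbers. Depth limits Slc38a4, Slc1a2, Slc36a2 and Slc7a3, with as few as 4, 2, 3 and 0 reads in a library.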
